A study of Rattus norvegicus with 9 samples.

Results

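The collagen, laminin and integrin genes of the rat adrenal medulla were followed through immobilization stress. They were chosen by gene symbol alone, as genes named Col with 2 numbers around an a, Lam with a chain letter and a number, or Itg with a or b. Of 14217 genes with a probe set of exactly 1 symbol, 77 met this rule. They comprised 41 collagen genes, 10 laminin genes and 26 integrin-named genes, of which 22 encode integrin chains and 4 (Itgb1bp1, Itgb1bp2, Itgb3bp and Itgbl1) do not. Each gene is given by its brightest probe set on average. After the dimmest 30% of named probe sets were left out, 53 of the 77 genes could be tested, namely 27 collagen, 7 laminin and 19 integrin-named genes. The other 24 fell below that level. They included Col2a1, Col10a1 and Col17a1, the laminin genes Lama1, Lama3 and Lamb3, and the integrin genes Itga7, Itgam and Itgb6. On the log2 scale the mean levels of these dim genes lay between 5.64 and 8.91, and those of the tested genes between 8.98 and 14.13.

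The study compared single and repeated immobilization in the adrenal medulla, the catecholamine-secreting core of the adrenal gland. RNA was measured on 9 Affymetrix oligonucleotide arrays in 3 groups of 3. The control rats (Control) met no stress, the 1XIMO rats were immobilized in 1 session of 2 h, and the 6XIMO rats for 2 h on each of 6 days, and the glands were taken once the last session was over. All were adults of 280 to 320 g, both medullae were dissected from an animal, and no strain or sex is named in the labels. Nothing in the labels ties an array to its own animal, so the p-values rest on the spread among the 9 samples, which may be technical. A sample label calls the tissue brain and the animal a mouse, whereas the organism field names the rat. The 7 markers of chromaffin cells, the adrenaline-producing cells of the medulla, were all present on the arrays and all passed the brightness filter, and so did the 6 markers of adrenal cortex that the array carries.

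Collagens are built from triple helices of alpha chains. Types I, III and V form fibrils, type IV forms the sheet of basement membranes, and type VII forms the anchoring fibrils that tie a basement membrane to the tissue below. Laminins are trimers of an alpha, a beta and a gamma chain, and they form the other sheet of the basement membrane. Integrins are pairs of an alpha and a beta chain in the cell surface that bind these proteins and couple them to the cytoskeleton. In the adrenal medulla, basement membranes surround the clusters of chromaffin cells and the dense capillaries between them.

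The 6XIMO arrays differed from the others in measures of RNA quality, and this accompanies each comparison with 6XIMO. The ratio of the 3′ to the 5′ control probe sets of actin, which grows as labelled RNA becomes less complete, was 231, 6.11 and 8.87 in 6XIMO replicates 1 to 3, against 1.57 to 1.99 in 1XIMO and 1.45 to 2.15 in Control. Over all probe sets, 6XIMO replicate 1 correlated at 0.591 to 0.734 with the other arrays, which correlated with each other at 0.844 to 0.984. Results are therefore given with and without 6XIMO replicate 1. Leaving it out also narrows the shared estimate of the spread, and so touches the comparison of 1XIMO with Control. The sum of the chromaffin markers, as linear intensity, was 1018930 to 2360100 in 6XIMO, 284448 to 582404 in 1XIMO and 302443 to 465035 in Control, and the cortex markers were likewise higher in 6XIMO (717602 to 1432420) than in 1XIMO (207638 to 494045) and Control (257132 to 373859). Not every marker followed these sums: 4 of 7 chromaffin and 4 of 6 cortex markers passed upward in 6XIMO against Control, beside 10% of all genes. The 8 fibroblast markers summed to 138233 and 128355 in 6XIMO replicates 2 and 3 but to 47590 in replicate 1, against 49810 to 83138 in Control. Most of the sum in replicates 2 and 3 was Dcn (103757 and 99376), whereas Pdgfra, Fap, Pi16, Dpt and Mfap5 were each highest in replicate 1. Of the 7 fibroblast markers tested, 2 passed upward in 6XIMO against Control and 0 downward. No marker of any list was at 0. The part of RNA quality or of cell makeup in the results below was not tested. In bulk tissue, fewer cells of a type and less RNA per cell cannot be told apart.

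After a single session 2 of the 53 genes rose and 0 fell. Col7a1, the collagen of anchoring fibrils, rose 3.67-fold and the laminin gene Lama5 rose 2.56-fold in 1XIMO against Control. The 2 genes are 3.77% of those tested. Of all 10633 genes tested, 10.2% changed, 4.47% upward and 5.71% downward. The median log2 fold change of the 53 genes was 0.06, and that of all genes was -0.13. The groups did not overlap for 11 of the 53 genes, 6 higher and 5 lower in 1XIMO, beside 44.3% of all genes, 13.8% higher and 30.5% lower.

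Col7a1 encodes the chain of type VII collagen. Its level, as log2(intensity + 16), was 13.59, 14.43 and 14.12 in the 1XIMO arrays and 13.75, 14.26 and 13.61 in the 6XIMO arrays, against 11.86, 12.73 and 11.93 in the Control arrays. Every stressed array lay above every Control array. The log2 fold change was 1.88 ± 0.31 in 1XIMO (SE of the limma fit, n = 3 arrays a group, adjusted p = 0.00525) and 1.70 ± 0.31 in 6XIMO (3.25-fold, adjusted p = 0.0046). After 6 sessions it differed from 1 session by -0.17 ± 0.31, which did not pass the test (adjusted p = 0.748).

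Lama5 encodes the alpha chain of the laminins that are widespread in adult epithelial and vascular basement membranes. It was at 10.93, 11.37 and 11.23 in 1XIMO and at 11.38, 11.47 and 11.47 in 6XIMO, against 10.13, 9.91 and 9.42 in Control. Again no stressed array overlapped a Control array, and the 3 6XIMO arrays lay close together. The log2 fold change was 1.36 ± 0.24 in 1XIMO (adjusted p = 0.00784) and 1.62 ± 0.24 in 6XIMO (3.07-fold, adjusted p = 0.0019). The other probe sets of Lama5 were below the brightness filter, and the brighter of them was 0.45 and 1.00 higher on the log2 scale in 1XIMO and 6XIMO than in Control, and 0.25 higher in 6XIMO without its replicate 1. The dimmest differed by -0.07 in 1XIMO and by -0.54 in 6XIMO, or -1.29 without that array.

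Median centring of the arrays, with which the SE of Col7a1 was 0.56, ended the 1XIMO calls of Col7a1 (adjusted p = 0.118, over a range of 9.47e-06 to 0.118 across the settings tried) and Lama5 (0.11, over 1.32e-05 to 0.11). Col7a1 also lost its 6XIMO call there (0.0775, over 0.000106 to 0.0775), and Lama5 kept it (5.44e-06 to 0.0284). Without 6XIMO replicate 1 the 6XIMO changes were 1.76 (adjusted p = 0.00127) for Col7a1 and 1.65 (0.000415) for Lama5.

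The sequences before the start sites of the 4 genes that rose are shown to set their composition side by side, since 2 of them rose in both stressed groups and the others passed in 6XIMO. They are 250 bases upstream of the start, 5′ to 3′ on the gene's strand, from RefSeq on the GRCr8 assembly, and capitals mark the motifs found. Col7a1 lies at chr8:118483114-118483363 on the plus strand, Lama5 at chr3:187695975-187696224 on the minus strand, Lama4 at chr20:43946648-43946897 on the plus strand and Lamb1 at chr6:53562846-53563095 on the plus strand.
Col7a1: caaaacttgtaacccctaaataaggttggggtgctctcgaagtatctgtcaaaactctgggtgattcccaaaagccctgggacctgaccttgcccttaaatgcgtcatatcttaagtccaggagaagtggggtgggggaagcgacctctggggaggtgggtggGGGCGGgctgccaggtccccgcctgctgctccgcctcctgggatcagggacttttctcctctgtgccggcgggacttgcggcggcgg
Lama5: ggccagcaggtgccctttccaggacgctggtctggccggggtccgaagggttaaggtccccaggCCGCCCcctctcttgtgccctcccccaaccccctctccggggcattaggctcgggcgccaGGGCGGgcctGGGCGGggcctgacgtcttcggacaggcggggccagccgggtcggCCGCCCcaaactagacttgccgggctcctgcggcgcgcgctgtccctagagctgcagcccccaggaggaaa
Lama4: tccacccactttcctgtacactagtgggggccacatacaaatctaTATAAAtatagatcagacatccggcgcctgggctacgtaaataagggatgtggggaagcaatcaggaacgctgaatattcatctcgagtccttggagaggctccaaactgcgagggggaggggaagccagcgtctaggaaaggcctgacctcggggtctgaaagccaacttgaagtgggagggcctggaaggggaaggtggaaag
Lamb1: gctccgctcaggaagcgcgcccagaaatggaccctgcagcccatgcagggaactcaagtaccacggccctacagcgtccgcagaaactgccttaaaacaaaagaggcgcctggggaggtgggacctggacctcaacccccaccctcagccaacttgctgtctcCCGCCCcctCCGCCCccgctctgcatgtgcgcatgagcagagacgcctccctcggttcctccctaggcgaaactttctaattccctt
GC content was 59.6% before Col7a1, 72.8% before Lama5, 53.2% before Lama4 and 62.0% before Lamb1, beside a median of 54.0% over 21851 promoters. The motifs named here were searched on both strands, in windows of the 250 bases before the start. The hexamer GGGCGG, a binding sequence of Sp factors, stood 4 times before Lama5, 2 times before Lamb1 and 1 time before Col7a1. Before Lama4 the letters TATAAA stood 205 bases from the start. None of TGACGTCA, TGAGTCA, GCGTGGGCG or AAAGGTCA, the classic sites of CREB, AP-1, Egr and Nr4a factors, was found in these 4 windows. The end of GCGTGGGCG shares letters with GGGCGG, and the other motifs were searched as they stand. The search covered 60 of the 77 genes, with 63 promoters. GGGCGG was in 50.8% of these and in 38.9% of all, TGACGTCA in 3 of 63 and 1.89% of all, TGAGTCA in 3 and 3.65%, GCGTGGGCG in 1 and 0.673%, and AAAGGTCA in 0 and 1.06%. TATAAA was in 6 of 63 and 12.1% of all, and CCAAT in 16 and 35.0%. A match is a run of letters and not evidence of binding.

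**Figure D1:**
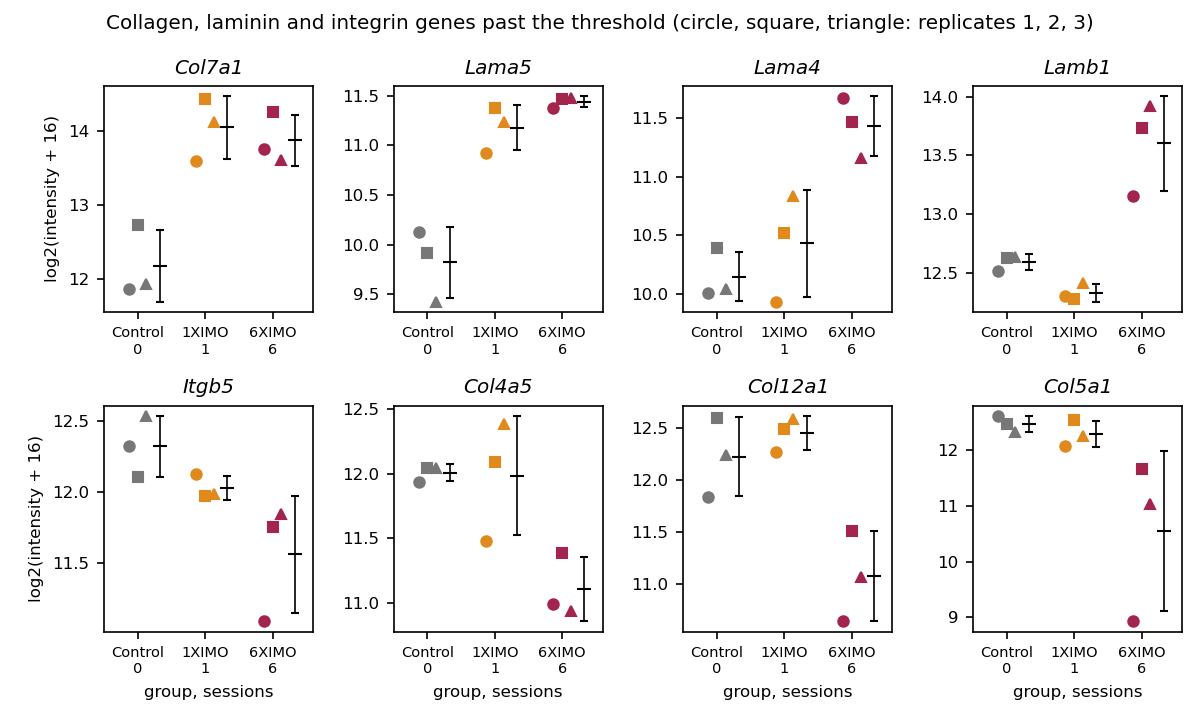
Level of the 8 collagen, laminin and integrin genes past the threshold in 6XIMO against Control, as log2(intensity + 16), in each array of Control, 1XIMO and 6XIMO (0, 1 and 6 sessions). Circle, square and triangle are replicates 1, 2 and 3, bars are the mean ± SD over 3 arrays, and each panel has its own axis. Col7a1 and Lama5 are above Control in both stressed groups, Lama4 and Lamb1 in 6XIMO, and the lower row is below Control in 6XIMO.

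No other tested gene passed in 1XIMO against Control. The 51 others ranged from -0.72 for Itgb1bp1, which encodes a cytoplasmic partner of the integrin beta 1 tail, to 0.81 for Itgb3, the beta chain of the vitronectin receptor, and 47 of them lay within 0.5 of 0 on the log2 scale. At an unadjusted p under 0.05, 2 of the 51 would have passed. The fibril collagens were close to Control. Col1a1 was at 12.23, 12.71 and 12.31 in 1XIMO and 12.31, 12.81 and 12.37 in Control, a change of -0.08 ± 0.22, and Col3a1 changed by -0.09 ± 0.65. Col1a2, the partner chain of Col1a1 in type I collagen, differed by 0.02 ± 0.57.

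Of the type IV chains, Col4a1 was at 14.00, 14.02 and 13.89 in 1XIMO and 13.61, 13.69 and 13.47 in Control, groups that did not overlap (0.38 ± 0.27, adjusted p = 0.492). Its partner Col4a2 was at 13.06, 13.86 and 13.62 in 1XIMO and 12.71, 13.33 and 13.24 in Control (0.42 ± 0.56, adjusted p = 0.781). Both were higher in 1XIMO within each same-numbered pair. Same-numbered 1XIMO and Control arrays deviated together, so a fit of these 2 groups with the replicate number as a block was added after the data were seen. It called 10 of the 53 genes, 6 higher and 4 lower, beside 40.2% of all genes, and among them Col4a1 (adjusted p = 0.0146) and Col4a2 (0.00972). The other genes it called upward were Col7a1, Lama5, Itgb3 and Col18a1, and those it called downward were Itga6, Itgal, Lamc1 and Itgb1bp1. With the 2 groups alone and no block, 8 of the 53 were called, 4 higher and 4 lower, beside 3187 of all 10633 genes.

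Col4a1 and Col4a2 lie head to head in the genome, and the sequence between their start sites is shown because both genes read from it. It spans 76 bases at chr16:84885521-84885596 of GRCr8, given on the plus strand, with a GC content of 78.9% and 1 GGGCGG on the minus strand in capitals.
Col4a1 and Col4a2: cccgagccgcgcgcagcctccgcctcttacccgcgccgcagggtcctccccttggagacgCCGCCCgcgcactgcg

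Itgb3, Itga6, Itgal, Lamc1 and Itgb1bp1 did not pass in 1XIMO with all arrays in the fit but passed when 6XIMO replicate 1 was left out. That fit called 7 of 54 genes, 3 up and 4 down, beside 32.2% of all genes, 10.5% up and 21.7% down. Itgb3 was at 11.24, 11.65 and 11.46 in 1XIMO and 10.88, 10.63 and 10.43 in Control (0.81 ± 0.24, adjusted p = 0.068 with all arrays and 0.00682 without that one). It also passed with all arrays under quantile normalization (0.93, adjusted p = 0.0274). Itga6, the alpha chain of a laminin receptor, was at 10.71, 10.54 and 10.81 in 1XIMO and 11.60, 11.28 and 11.22 in Control (-0.68 ± 0.26, adjusted p = 0.14 and 0.0139). Itgal, the alpha chain of the leukocyte integrin LFA-1, was at 10.81, 10.63 and 10.50 in 1XIMO and 11.50, 11.44 and 11.14 in Control (-0.71 ± 0.44, adjusted p = 0.398 and 0.0185). Lamc1, the gamma chain of most laminins, was at 12.37, 12.47 and 12.21 in 1XIMO and 12.75, 12.82 and 12.70 in Control (-0.41 ± 0.27, adjusted p = 0.433 and 0.0256). Itgb1bp1 was also lower in 1XIMO (adjusted p = 0.574 and 0.00183). In each of these genes the 1XIMO and Control arrays do not overlap. Each of them had the same log2 fold change in the main fit and in the fit without 6XIMO replicate 1. What differed for them was the spread taken from 6XIMO and the set of all genes tested. The latter was 10633 genes in the main fit and 10600 without that array, as the filter was applied again. The 8 leukocyte markers summed to 55452 to 69236 in 1XIMO and 60205 to 68447 in Control, and the 8 pericyte and smooth muscle markers to 33623 to 34844 in 1XIMO and 20748 to 26545 in Control. The second sum was higher mainly through the contractile genes Tagln (15043 to 16227 in 1XIMO and 8524 to 9206 in Control) and Acta2 (6442 to 8077 in 1XIMO and 2576 to 4931 in Control). Of the 7 tested markers of that list, 3 had a log2 fold change above 0, the median was -0.03 and 0 passed.

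**Figure D2:**
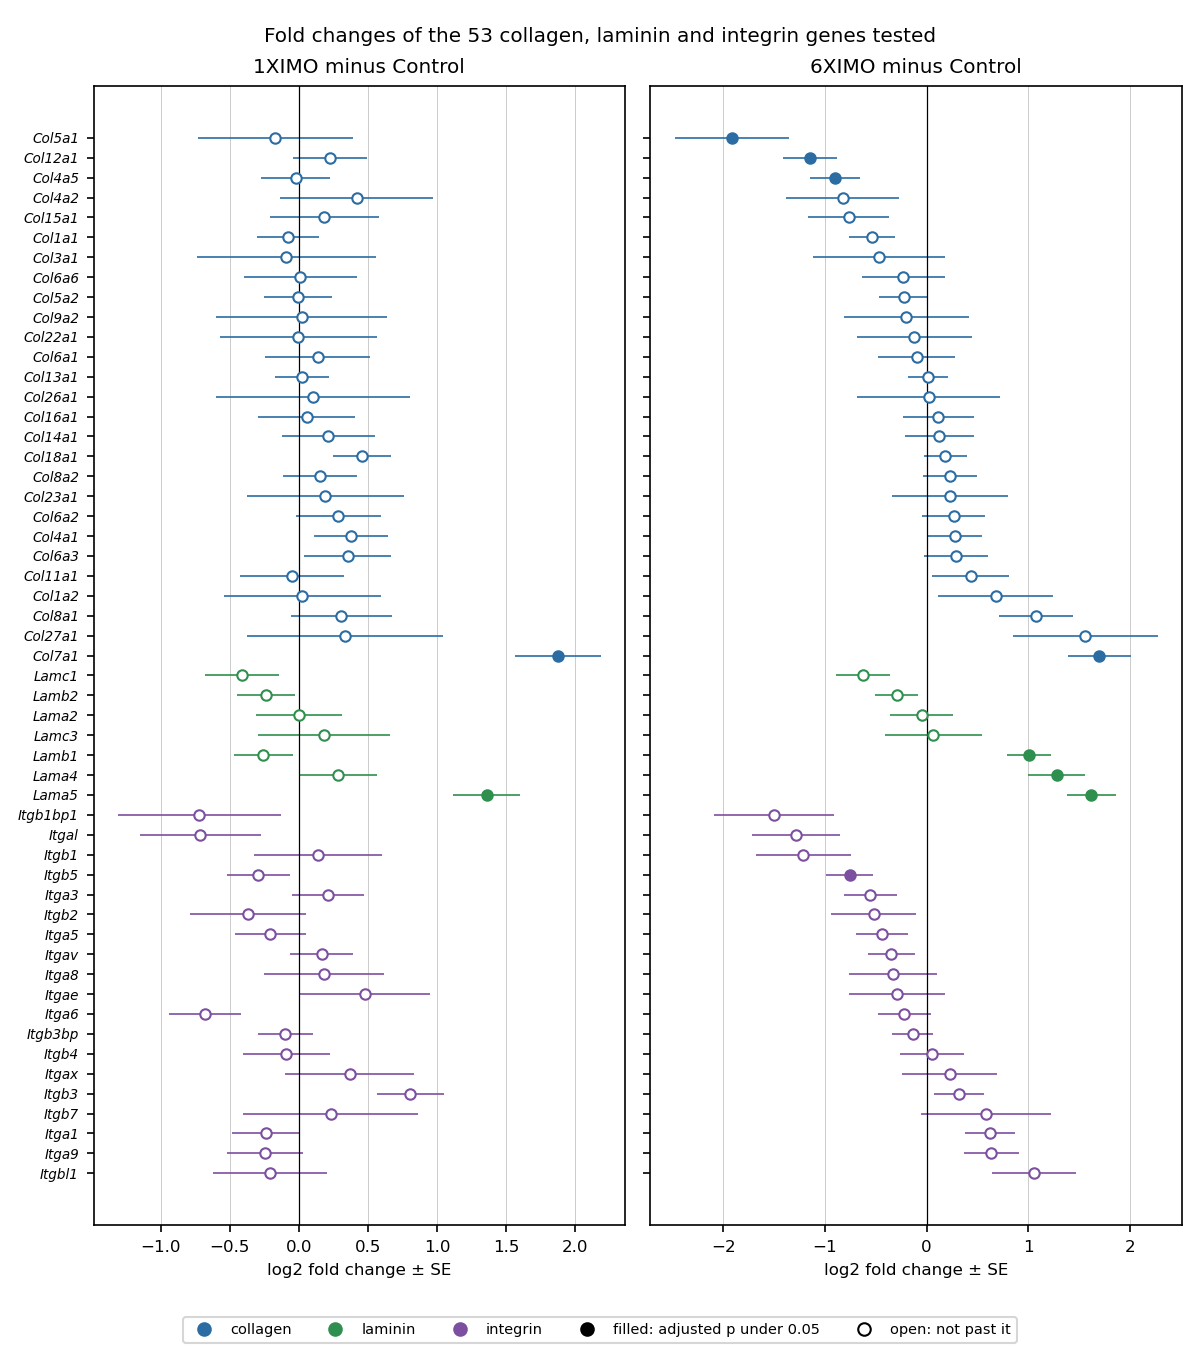
Log2 fold change ± SE of the 53 genes tested, for 1XIMO minus Control (left) and 6XIMO minus Control (right), ordered within each family by the 6XIMO value and coloured by family. Filled points passed an adjusted p of 0.05, and the panels have different horizontal scales. Most 1XIMO points lie within 0.5 of 0 and the 6XIMO points spread further to both sides.

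After 6 sessions, 8 of the 53 genes changed, with 3 laminin chains and Col7a1 higher and 3 collagen chains and Itgb5 lower in 6XIMO than in Control. Lama5, Lama4 and Lamb1 rose 3.07-fold, 2.43-fold and 2.01-fold. Col5a1, Col12a1, Col4a5 and Itgb5 fell by 1.92, 1.15, 0.90 and 0.76 on the log2 scale. The 8 genes are 15.1% of those tested, beside 25.9% of all genes, of which 10% rose and 15.9% fell. The median log2 fold change was -0.05 for the 53 genes and -0.23 for all genes. The 2 groups did not overlap for 16 of the 53, 7 higher and 9 lower, beside 42.9% of all genes, 15.6% higher and 27.3% lower. By family, 1 of 27 collagen genes rose and 3 fell, 3 of 7 laminin genes rose and 0 fell, and 0 of 19 integrin-named genes rose and 1 fell. Quantile normalization moved the balance of these calls to 6 higher and 1 lower, with 18.7% of all genes called, while over all genes it gave 1046 higher and 942 lower in place of 1065 and 1686. It called all 4 genes that rose and none of the 4 that fell, and it added Col8a1 and Itgbl1 upward and Itgb1 downward.

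The laminin chains did not share 1 pattern. Lama4, the alpha chain of laminins of blood vessel walls, was at 11.66, 11.46 and 11.16 in 6XIMO, at 9.94, 10.52 and 10.84 in 1XIMO and at 10.01, 10.39 and 10.04 in Control. All 6XIMO arrays were above all the others, while 1XIMO overlapped Control (0.28 ± 0.28, adjusted p = 0.669). The 6XIMO change was 1.28 ± 0.28 (adjusted p = 0.0103) and the difference from 1XIMO was 1.00 ± 0.28 (adjusted p = 0.0509). A second, dim probe set of Lama4 lay below the filter and was 1.59 lower on the log2 scale in 6XIMO than in Control, so the 2 probe sets disagree.

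Lamb1, the beta chain of many basement membrane laminins, was at 13.15, 13.73 and 13.92 in 6XIMO, at 12.30, 12.28 and 12.42 in 1XIMO and at 12.51, 12.63 and 12.64 in Control. It was higher in 6XIMO than in Control by 1.01 ± 0.21 (adjusted p = 0.00875), whereas the 1XIMO arrays were all slightly below Control (-0.26 ± 0.21, adjusted p = 0.58). The direct comparison of 6XIMO with 1XIMO gave 1.27 ± 0.21 (2.41-fold, adjusted p = 0.0113). Without 6XIMO replicate 1 the rise against Control was 1.24 for Lamb1 (adjusted p = 6.24e-05) and 1.16 for Lama4 (0.00594). Median centring ended both 6XIMO calls, with an adjusted p of 0.233 for Lamb1 (range 1.39e-06 to 0.233) and 0.0548 for Lama4 (0.000518 to 0.0548).

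The remaining laminin chains did not pass the test. Lamb2, the beta chain that can stand in the place of Lamb1, was at 12.53, 12.13 and 12.19 in 6XIMO and 12.37, 12.65 and 12.73 in Control (-0.30 ± 0.21, adjusted p = 0.328). Lamc1 was at 11.48, 12.56 and 12.36 in 6XIMO and 12.75, 12.82 and 12.70 in Control (-0.63 ± 0.27, adjusted p = 0.112), below Control in every array and furthest in replicate 1. Lama2, the alpha chain of muscle and peripheral nerve laminins, differed by -0.05 (adjusted p = 0.923). Of the trimer of Lama5, Lamb1 and Lamc1, 2 chains rose in 6XIMO and the gamma chain did not pass in the main fit. A second probe set of Lamc1 above the filter was 0.95 lower in 6XIMO than in Control, and 1.11 lower without replicate 1. Lamc1 passed downward with the mean of all probe sets (-0.79, adjusted p = 0.0162) and with array weights (-0.36, 0.0268).

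Col12a1, Col4a5 and Col5a1 were the collagen genes that fell. Col12a1, a chain that sits on the surface of collagen fibrils, was at 10.65, 11.51 and 11.07 in 6XIMO, at 12.27, 12.49 and 12.58 in 1XIMO and at 11.84, 12.59 and 12.23 in Control. All 6XIMO arrays lay below all the others (-1.15 ± 0.27 against Control, adjusted p = 0.0133). The call was lost without Control replicate 2 (adjusted p = 0.0598), without Control replicate 3 (0.0507) and with quantile normalization (0.0795), over a range of 8.08e-05 to 0.332. The change was -0.93 without 6XIMO replicate 1 (adjusted p = 0.00676).

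Col4a5, a chain of the type IV network of selected basement membranes, was at 10.99, 11.39 and 10.94 in 6XIMO and 11.93, 12.05 and 12.05 in Control. The 6XIMO arrays were below both other groups, and the 1XIMO values of 11.48, 12.09 and 12.38 spread around those of Control. The 6XIMO change was -0.90 ± 0.25 (adjusted p = 0.0262), and -0.85 without 6XIMO replicate 1 (0.0166). It failed the test without Control replicate 1, 2 or 3 (adjusted p = 0.0628, 0.0834 and 0.0857) and without 6XIMO replicate 3 (0.0723), within a range of 0.000282 to 0.413.

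Col5a1 encodes the chain of type V collagen that helps to start fibrils. It was at 8.93, 11.66 and 11.03 in 6XIMO and 12.60, 12.45 and 12.32 in Control, so that replicate 1 was far below the other 6XIMO arrays. The change was -1.92 ± 0.56 with all arrays (adjusted p = 0.0328) and -1.11 ± 0.21 without that array (0.00174). It failed without any 1 of the Control arrays (adjusted p = 0.0822 to 0.0951) or the 1XIMO arrays (0.0511 to 0.0542), within a range of 8.74e-05 to 0.264. A second bright probe set of Col5a1 differed by -0.06 between 6XIMO and Control, and by -0.35 without 6XIMO replicate 1, which was its highest 6XIMO array. The 2 probe sets differ in the size of the change. Col5a2, its partner chain, differed by -0.23 ± 0.25 (adjusted p = 0.529).

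Itgb5, the beta chain that pairs with the alpha v chain, was at 11.09, 11.75 and 11.85 in 6XIMO and 12.32, 12.11 and 12.53 in Control. Replicate 1 was again the lowest, and no 6XIMO array reached a Control array (-0.76 ± 0.23, adjusted p = 0.0383). It was -0.52 without 6XIMO replicate 1 (0.0178), and without any 1 of the Control or 1XIMO arrays the adjusted p was 0.0549 to 0.141, within a range of 0.00494 to 0.562. A second probe set above the filter was 1.22 lower in 6XIMO than in Control. Median centring and quantile normalization each ended the 6XIMO calls of all 4 genes that fell, and with only 6XIMO and Control in the fit those of Col5a1 and Itgb5 were lost.

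The calls of Itgb1 and Itgav changed with the arrays, the scaling and the probe set used. Itgb1, the beta chain of most matrix receptors, was at 11.93, 14.01 and 13.89 in 6XIMO, at 14.61, 14.66 and 14.60 in 1XIMO and at 14.49, 14.53 and 14.44 in Control. All 6XIMO values were below Control, by far the most in replicate 1 (-1.21 ± 0.46, adjusted p = 0.0816). With that array left out the change was -0.54 ± 0.12 and passed (adjusted p = 0.00392, over a range of 0.000179 to 0.484). It also passed with all arrays under quantile normalization (adjusted p = 0.0283) and without 6XIMO replicate 2 (0.0397). Itgav, the alpha v chain, was at 12.60, 11.87 and 11.99 in 6XIMO and 12.32, 12.68 and 12.51 in Control (-0.35 ± 0.23, adjusted p = 0.293, and -0.57 with 0.0133 without replicate 1). On this probe set replicate 1 lay among the Control arrays. Both other probe sets of Itgav above the filter had replicate 1 below every Control array, at 8.53 against 10.13 to 11.30 and at 7.91 against 10.31 to 11.28, and they differed by -1.25 and -1.88 between 6XIMO and Control. Without that array they differed by -0.77 and -1.37. With the mean of all probe sets Itgav passed with all arrays (-1.16, adjusted p = 0.0127).

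Among the fibril collagens replicate 1 of 6XIMO also stood apart. Col1a2 was at 11.06, 13.66 and 13.26 in 6XIMO, at 11.68, 12.25 and 12.08 in 1XIMO and at 11.68, 12.40 and 11.85 in Control. Replicates 2 and 3 were above every Control array and replicate 1 below them all (0.68 ± 0.57, adjusted p = 0.412, against 1.48 ± 0.24 and 0.000794 without it). A second bright probe set of Col1a2 was 0.42 above Control in those 2 arrays. Col3a1 was at 11.00, 14.00 and 13.58 in 6XIMO and 13.03, 13.85 and 13.10 in Control, with a change of -0.47 ± 0.65 with all arrays (adjusted p = 0.63) and 0.46 ± 0.24 without replicate 1 (0.14), so its direction turned. Col1a1 was at 11.87, 12.24 and 11.77 in 6XIMO and 12.31, 12.81 and 12.37 in Control (-0.54 ± 0.22, adjusted p = 0.105). The 2 chains of type I collagen thus had opposite signs in the 6XIMO comparison, and neither passed in the main fit of all arrays. With all arrays Col1a1 passed downward under the replicate block (adjusted p = 0.0371) and array weights (0.00655). Col1a2 passed upward under array weights (0.000127). Col4a1 was at 13.33, 14.46 and 13.81 in 6XIMO (0.28 ± 0.27, adjusted p = 0.481, and 0.55 with 0.028 without replicate 1), and Col4a2 at 10.74, 13.26 and 12.81 (-0.83 ± 0.56, adjusted p = 0.302, and -0.06 with 0.851).

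**Figure D3:**
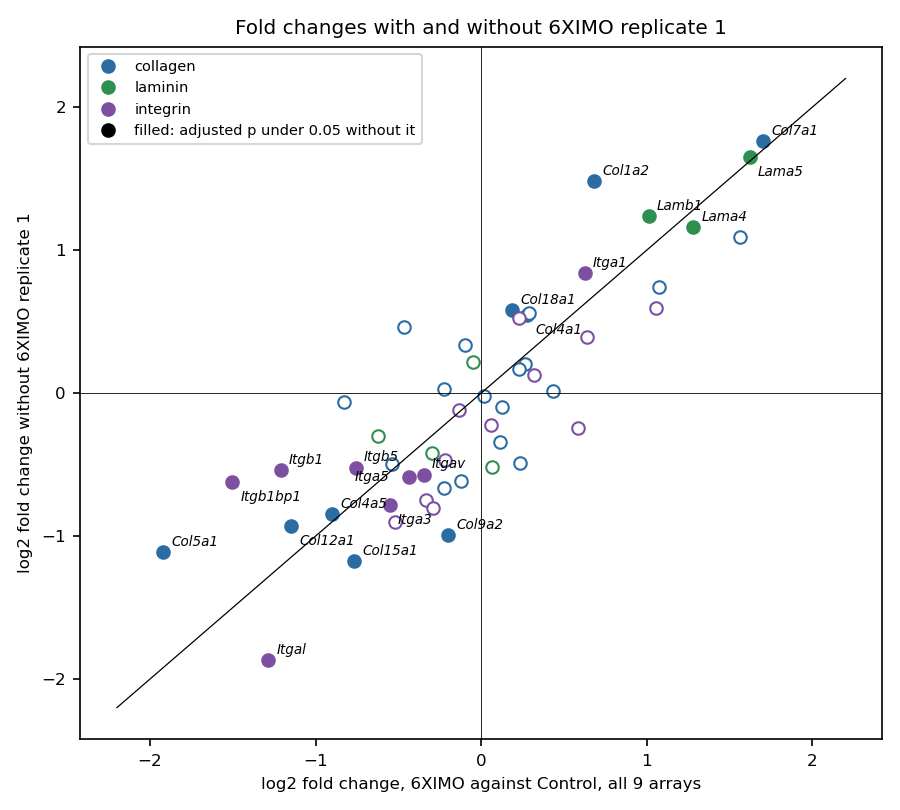
Log2 fold change of 6XIMO against Control with all 9 arrays (horizontal) and without 6XIMO replicate 1 (vertical), 1 point a gene, coloured by family. Filled points passed an adjusted p of 0.05 without that array, and the line marks equal values. Col7a1 and the 3 laminin genes lie near the line, while Col1a2, Col5a1, Itgb1 and Itgal lie off it. For Col18a1 the horizontal and vertical values come from different probe sets.

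Without 6XIMO replicate 1, 20 of 54 genes passed in 6XIMO against Control, 8 higher and 12 lower, beside 49.6% of all genes (18.7% higher and 30.9% lower). Quantile normalization of the same arrays turned this balance to 17 genes, 11 higher and 6 lower, beside 36.7% of all genes (17.5% higher and 19.2% lower). There Itga5 differed by -0.04 (adjusted p = 0.889), and Col4a1, Itga1, Itga3, Col9a2 and Col15a1 did not pass. Col4a5 (-0.57, adjusted p = 0.0777) and Itgb5 (-0.35, 0.135), which were called with every array, did not pass there either. All 8 genes called with every array were among the 20. The added genes with higher values were Col1a2, Col4a1, Col18a1 and Itga1, the alpha chain of a collagen receptor. For Col18a1 another probe set became the brightest once that array was left out, and it was 0.58 above Control. The Col18a1 probe set of the main fit was 0.31 above Control without that array. The added genes with lower values were Col9a2, Col15a1, Itga3, Itga5, Itgal, Itgav, Itgb1 and Itgb1bp1. For Col15a1 and Itgb1bp1 a second, dim probe set below the filter went the other way. Without that array it was 0.99 above Control for Col15a1, against -1.17 for the one used. For Itgb1bp1 it was 0.28 above, against -0.62. Itga1 was at 13.77, 14.39 and 14.46 in 6XIMO and 13.28, 13.95 and 13.52 in Control (0.62 ± 0.25, adjusted p = 0.0879, and 0.84 with 0.00337 without the array). Itgal was at 11.24, 9.26 and 9.72 in 6XIMO and 11.50, 11.44 and 11.14 in Control (-1.29 ± 0.44, adjusted p = 0.0567, and -1.87 with 0.00013). Here replicate 1 was the array near Control, the reverse of Itgb1 and Col5a1. The leukocyte markers summed to 17861 in 6XIMO replicate 1 and to 69491 and 63316 in replicates 2 and 3, against 60205 to 68447 in Control, and most of each sum was Lyz2, which encodes lysozyme. Ptprc, the leukocyte surface protein CD45, was at 1686, 440.5 and 996.2 in 6XIMO replicates 1 to 3 against 1165 to 1794 in Control. Csf1r, a macrophage receptor, was at 580.0, 2257 and 2239 in 6XIMO against 4178 to 4870 in Control. Of the 6 leukocyte markers tested, 0 had a log2 fold change above 0 in 6XIMO against Control, the median was -0.95, and 2 passed downward with all arrays and 3 without 6XIMO replicate 1. The 9 endothelial markers on the array summed to 50488 to 61365 in 6XIMO, 60876 to 67077 in 1XIMO and 63099 to 72429 in Control. Among them Kdr was at 10158 to 12016 in 6XIMO and 15830 to 22501 in Control, whereas Tek was at 14360 to 15388 and 11384 to 12215. Of the 9, 3 had a log2 fold change above 0 in 6XIMO against Control, and the median was -0.35. With all arrays 0 passed upward and 2 downward, and without 6XIMO replicate 1 it was 2 and 2.

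The 45 genes that did not pass in 6XIMO against Control ranged from -1.51 for Itgb1bp1 to 1.56 for Col27a1, a fibril collagen of cartilage, and 29 lay within 0.5 of 0. At an unadjusted p under 0.05, 9 of these would have passed. Across the 2 comparisons with the shared Control arrays, Col7a1 and Lama5 passed in both and 45 genes in neither. Lama4, Lamb1, Col12a1, Col4a5, Col5a1 and Itgb5 passed in 6XIMO and not in 1XIMO, and of these only Lamb1 and Col12a1 passed the test of the difference between 6XIMO and 1XIMO.

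**Figure D4:**
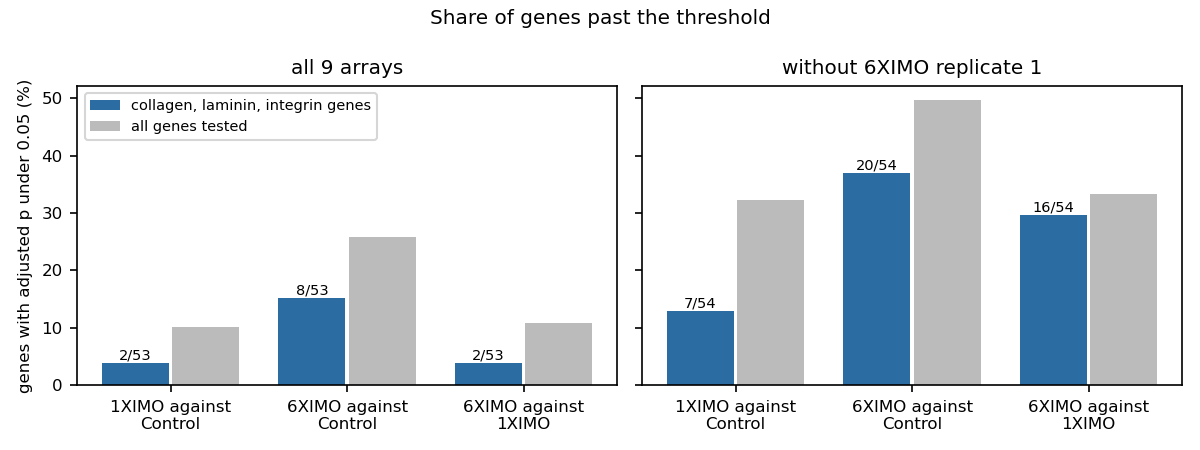
Share of genes with an adjusted p under 0.05 among the collagen, laminin and integrin genes (blue, with counts above the bars) and among all genes tested (grey), with all 9 arrays (left) and without 6XIMO replicate 1 (right). In each of the 6 pairs the share among the collagen, laminin and integrin genes is below that of all genes.

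Set directly against 1 session, 6 sessions changed 2 of the 53 genes, Lamb1 upward and Col12a1 downward. This comparison tests whether the responses to 1 and 6 sessions differ, and 10.8% of all genes passed it, 5.79% upward and 5.04% downward. Col12a1 was lower in 6XIMO than in 1XIMO by 1.37 ± 0.27 on the log2 scale, a signed difference of -1.37 (adjusted p = 0.0165). Lamb1 lost its call without 1XIMO replicate 2 (adjusted p = 0.0588) or 3 (0.0563), and with only the 2 groups compared in the fit (0.0619), over a range of 2.49e-06 to 0.286. Col12a1 lost its own without the same arrays (adjusted p = 0.07 and 0.078), with only these groups in the fit (0.0618) and with quantile normalization, over 2.83e-05 to 0.283. Median centring ended both calls. Without 6XIMO replicate 1 both passed, with differences of 1.49 for Lamb1 and -1.16 for Col12a1, and 16 of 54 genes passed, 5 higher and 11 lower, beside 33.3% of all genes (16.1% higher and 17.2% lower). With quantile normalization of the same arrays 12 passed, 6 higher and 6 lower, beside 22.7% of all genes (12.8% higher and 9.92% lower). The 53 genes had a median difference of -0.12 and all genes one of -0.07, and 6XIMO and 1XIMO did not overlap for 12 of the 53, 6 higher and 6 lower, beside 34.9% of all (16.8% higher and 18% lower). The 51 others ranged from -1.75 for Col5a1 to 1.27 for Itgbl1, an integrin beta-like secreted protein, and 33 lay within 0.5 of 0.

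Genes that process, bind or cut these proteins were read from 5 lists. With 1XIMO set against Control, 0 of 17 collagen processing genes changed, 1 of 15 basement membrane and matrix partners rose, 1 of 9 metalloproteases and inhibitors fell, 2 of 24 integrin adaptors rose and 0 of 12 other matrix receptors changed, beside 10.2% of all genes (4.47% up and 5.71% down). The riser among the basement membrane partners was Nid1, which encodes nidogen, the protein that links laminin to type IV collagen. Nid1 was at 14.96, 14.86 and 14.54 in 1XIMO and at 15.18, 15.62 and 16.05 in 6XIMO, against 13.12, 13.63 and 13.60 in Control. No stressed array overlapped Control, with log2 fold changes of 1.34 ± 0.27 in 1XIMO (adjusted p = 0.0138) and 2.17 ± 0.27 in 6XIMO (0.000804). Mmp14, a membrane-bound collagenase, was at 13.10, 13.27 and 12.86 in 1XIMO and 12.17, 12.55 and 12.07 in 6XIMO, against 14.48, 14.42 and 14.44 in Control. Its log2 fold change was -1.37 ± 0.19 in 1XIMO (adjusted p = 0.00239) and -2.18 ± 0.19 in 6XIMO (0.000184), and 6XIMO differed from 1XIMO by -0.81 ± 0.19 (0.03). The 3 groups did not overlap.

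In 6XIMO against Control, where 10% of all genes rose and 15.9% fell, 3 of the 17 collagen processing genes rose and 1 fell, with a list median of 0.09. P3h3, of a family of prolyl 3-hydroxylases, rose by 1.26 (adjusted p = 0.00512), Loxl2, a collagen cross-linking oxidase, by 1.28 (0.0175), and P4ha1, the catalytic chain of a prolyl 4-hydroxylase, by 0.80 (0.0416). Colgalt1, a collagen galactosyltransferase, fell by 0.75 (0.0301). P4ha1 was at 11.76, 12.43 and 12.41 in 6XIMO and 12.52, 12.09 and 11.99 in 1XIMO, against 11.63, 11.43 and 11.13 in Control, and in 1XIMO it did not pass (0.80 ± 0.25, adjusted p = 0.0764). Among the metalloproteases and inhibitors 3 of 9 rose and 1 fell. Mmp23, a small membrane-anchored metalloprotease, rose by 1.48 (0.0145), and the inhibitors Timp1 and Timp2 by 1.25 (0.0464) and 0.70 (0.0492). Timp1 was at 12.96, 14.70 and 14.66 in 6XIMO and 13.95, 14.03 and 13.95 in 1XIMO, against 12.90, 12.92 and 12.76 in Control. Its 1XIMO arrays were far from Control, but the test with all arrays gave an adjusted p of 0.117, and 4.3e-05 without 6XIMO replicate 1, whose value lay next to Control.

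Of the 24 integrin adaptors, 2 rose and 4 fell in 6XIMO, and of the 12 other matrix receptors 1 rose and 2 fell, beside the same shares of all genes. Lims2, an adaptor of the integrin-linked kinase complex, rose in both 1XIMO (1.57, adjusted p = 0.0183) and 6XIMO (1.39, 0.0159), and so did the focal adhesion scaffold Bcar1 (1.09 with 0.0229, and 0.88 with 0.0283). Lims1, the close relative of Lims2, was at 11.25, 12.74 and 12.79 in 6XIMO, at 13.68, 13.60 and 13.50 in 1XIMO and at 13.81, 13.82 and 13.61 in Control. It fell in 6XIMO, with a log2 fold change of -1.48 (adjusted p = 0.0159). So did Ptk2b, a kinase related to focal adhesion kinase (-1.45, 0.0448), Kank1, an adaptor at the rim of adhesions (-1.44, 0.0118), and Tns1, which links integrins to actin (-0.74, 0.0188). Among the other matrix receptors Rpsa, a laminin-binding ribosomal protein, rose by 1.13 (0.00634), while the collagen receptor kinase Ddr1 (-1.16, 0.0199) and the thrombospondin receptor Cd36 (-2.92, 0.023) fell. The list medians in 6XIMO were -0.23 for the adaptors and -0.19 for the other receptors, beside -0.23 for all genes.

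With 6XIMO replicate 1 left out, the genes of these lists that passed in 6XIMO against Control with all arrays passed again. The change was then -0.98 for Lims1 (adjusted p = 0.000215) and -0.97 for Ptk2b (0.0338), both smaller by over 1.5 times than with all arrays, while Timp1 was at 1.82 (5.47e-06) and Cd36 at -2.32 (0.0239). Of all genes 49.6% passed. Of the collagen processing genes 7 rose and 2 fell, of the basement membrane partners 3 rose and 1 fell, of the metalloproteases and inhibitors 4 rose and 1 fell, of the adaptors 5 rose and 6 fell, and of the other receptors 3 rose and 4 fell. In 1XIMO against Control the same fit, in which 32.2% of all genes passed, gave 1 up and 3 down, 2 up and 0 down, 2 up and 1 down, 7 up and 4 down, and 1 up and 3 down in these lists, in the same order. With all arrays, 6XIMO set directly against 1XIMO gave 2 collagen processing genes higher, P3h1 (1.31 ± 0.28, adjusted p = 0.0203) and P3h3 (1.30 ± 0.24, 0.0136). P3h1, a prolyl 3-hydroxylase like P3h3, was at 11.74, 10.98 and 10.93 in 6XIMO and at 10.02, 10.01 and 9.69 in 1XIMO, with no overlap. The same comparison gave Mmp23 (1.39, adjusted p = 0.0373) and Rpsa (1.11, 0.0178) higher. Beside Mmp14, it gave 2 adaptors lower, Lims1 (-1.33, 0.0457, and -0.83 without 6XIMO replicate 1) and Zyx, which encodes the focal adhesion protein zyxin (-1.14, 0.0436).

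**Figure D5:**
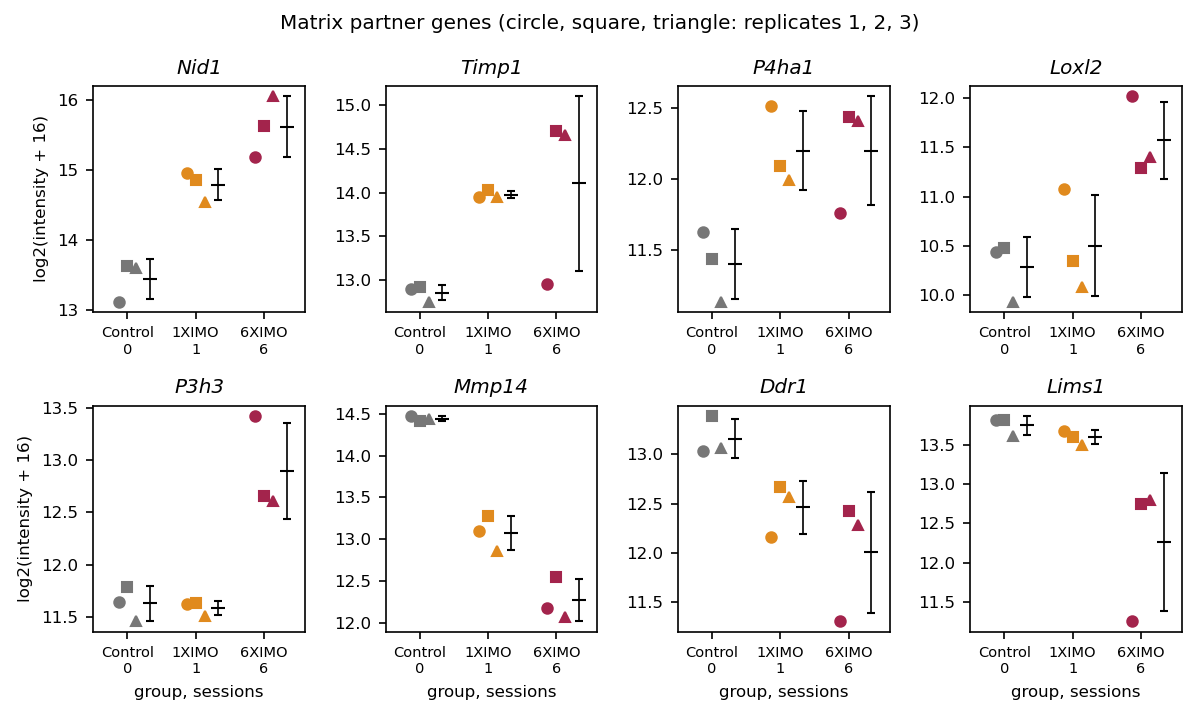
Level of 8 genes that process, bind or cut the matrix proteins or couple to integrins, as log2(intensity + 16), in each array of Control, 1XIMO and 6XIMO (0, 1 and 6 sessions). Circle, square and triangle are replicates 1, 2 and 3, bars are the mean ± SD over 3 arrays, and each panel has its own axis. Nid1 is higher and Mmp14 lower in both stressed groups, and Timp1 of 6XIMO replicate 1 lies next to Control.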

How the data were processed

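The samples were adrenal medulla RNA on 9 Affymetrix rat arrays, 3 in each of 1XIMO, 6XIMO and Control, grouped by sample title. The deposited table holds 1 linear intensity per probe set and array. Trimmed means of 2500.57 to 2501.03, with 2% left out at each end, show a scaling of whole arrays before deposit. The method of probe summary is not given in the sources used here. Per the labels' protocols, the manufacturer labelled the RNA. The number of arrays limits the precision.

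Of 31099 probe sets, 20826 had exactly 1 gene symbol and 436 several in the platform annotation. Values were taken as log2(intensity + 16), with fold changes on that scale, which understates the change of dim genes. The dimmest 30% of named probe sets, under a mean of 8.93, were dropped, and each of 10633 genes was represented by its brightest remaining probe set. limma 3.58.1 in R 4.3.3 (lmFit, eBayes with a trend) was fitted to all 9 arrays without covariates, with 6 residual degrees of freedom, two-sided tests and Benjamini-Hochberg adjustment over all genes at 0.05. The script was tested on simulated data. Same-numbered arrays deviated together between 1XIMO and Control (correlations 0.52, 0.38 and 0.24). The correlations were not above 0.1 in every pair of 6XIMO with Control (0.09, 0.03 and 0.15) or with 1XIMO (0.10, 0.07 and 0.04). A fit of 2 groups with the replicate number as a block was therefore added only for 1XIMO with Control. The main fit took no pairs, and a block over all 3 groups was 1 of the other settings. Other settings were other filters, pseudocounts of 1 and 64, quantile normalization, median centring, the mean of all probe sets, array weights, a replicate block, fits of 2 groups and leaving out each array. Where a setting changed the values or left out an array, the filter and the brightest probe set were chosen again. The genes tested and the probe set of a gene can therefore differ between settings.

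The genes and lists were chosen with earlier results of these data known. Named by rule were the genes past the threshold, the brightest of each family, chains of the same collagen type, Itgb1, Itgav, Col1a1, Col1a2, Col3a1, Col4a1, Col4a2, Lama5, Lamb1, Lamb2 and Lamc1, and up to 4 genes of each list. Other genes were named after their values were seen.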

Additional observations from a re-analysis of the deposited data

Results flagged for a closer look

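Lamb1 and Col12a1 stood out because their responses to 6 and to 1 session differed by a direct test, the limma comparison of 6XIMO with 1XIMO over 3 arrays each. Lamb1 was higher in 6XIMO than in 1XIMO by 1.27 on the log2 scale (adjusted p = 0.0113), with all 6XIMO arrays above all 1XIMO arrays. Col12a1 differed by -1.37 (adjusted p = 0.0165), with all 6XIMO arrays below all 1XIMO arrays. The actin 3′/5′ ratio was 6.11 to 231 in 6XIMO and 1.57 to 1.99 in 1XIMO, and its part in either result was not tested.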

How the results depend on the processing

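Of the 12 calls of single genes, 1 held under every alternative run, that of Lama5 in 6XIMO against Control, and none changed sign. The other 11 were lost under at least 1 alternative. In 1XIMO against Control, 2 genes were called, and 0 with median centring, 12 with array weights (whose estimation stopped before it converged), 8 with only these groups in the fit, 7 with quantile normalization without 6XIMO replicate 1, and 10 with the replicate block and only Control and 1XIMO in the fit. Leaving out 1 array gave 2 to 7. In 6XIMO against Control, 8 were called, and 3 with median centring, 26 with array weights and 17 with quantile normalization without 6XIMO replicate 1. The 3 with median centring were Lama5 and Itgbl1 upward (adjusted p = 0.0284 and 0.0364) and Itgal downward (0.0304). Only 1 of these, Lama5, was among the 8 of the main fit. Leaving out 1 array gave 4 to 20, the lowest without Control replicate 2 or 3 and the highest without 6XIMO replicate 1. In 6XIMO against 1XIMO, 2 were called, and 5 with the dimmest 50% left out, 0 with median centring (where 60 of all genes passed), 4 with the mean of all probe sets, 24 with array weights, 0 with only these groups in the fit (where 3 of all genes passed) and 12 with quantile normalization without 6XIMO replicate 1. Leaving out 1 array gave 0 to 16. The 0 calls came without 1XIMO replicate 2 or 3.

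With the replicate block in the fit of all 9 arrays, 2, 11 and 3 genes were called in the 3 comparisons, in place of 2, 8 and 2. The pairing added no call in 1XIMO against Control there. Over all genes, 1082, 2751 and 1152 were called in 1XIMO against Control, 6XIMO against Control and 6XIMO against 1XIMO. Those counts were 219, 681 and 60 with median centring, 4399, 6279 and 5310 with array weights, 825, 1988 and 661 with quantile normalization, and 3413, 5261 and 3527 without 6XIMO replicate 1. Over all genes in 6XIMO against Control the median log2 fold change was -0.23, and -0.06 with median centring, -0.15 with quantile normalization and -0.03 with quantile normalization without 6XIMO replicate 1. The causes of these shifts were not tested. Genes near or below the filter have signals where background weighs most, so their changes are least certain.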
